A study of Mus musculus with 15 samples.

Results

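The genes described here are 8 genes of MHC class II antigen presentation, H2-Aa, H2-Ab1, H2-Eb1, H2-DMa, H2-DMb1, Cd74, Ciita and Ctss, followed in mouse hearts with and without chronic kidney disease (CKD). They were chosen by name, as class II chains, class II loading genes and their regulator. All 8 are among the 17447 genes of the deposited table of read counts. All 8 also passed the filter on low counts, which left 13021 genes to test.

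MHC class II molecules are pairs of an alpha and a beta chain that carry peptides from engulfed proteins to the surface of antigen-presenting cells, where CD4 T cells read them. The invariant chain (Cd74) fills the groove of a new pair, the protease cathepsin S (Ctss) trims it to a short remnant, and the H2-DM molecule exchanges that remnant for a peptide, while CIITA (Ciita) is the co-activator that switches the class II genes on, in many cells after interferon gamma. In the heart, class II is known mainly from resident and recruited macrophages, dendritic cells and B cells.

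The study asked what renalase, a flavoprotein that the kidney releases into the blood, does to the heart in CKD, and sequenced RNA of 15 hearts, 1 library per mouse and 3 mice in each of 5 groups. The mice were males aged 6 to 8 weeks at the start. CKD was made by 5/6 nephrectomy in 2 steps, and weeks are counted from the later step. Treatment began in week 2, and hearts were taken 18 weeks after surgery.

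WTSHAM hearts came from wild-type mice with a sham operation, for which no vector is stated. WTCKD hearts came from wild-type mice with CKD that received a control vector, whose content is not stated. WTCKD + RNLS hearts came from wild-type mice with CKD that received AAV9-cTnT-Rnls. In that virus the cTnT promoter restricts renalase to cardiomyocytes, cells that are not among the usual class II presenting cells. KOCKD hearts came from Rnls knockout (Rnls -/-) mice with CKD and the control vector, and KOCKD + RNLS hearts from knockout mice with CKD and AAV9-cTnT-Rnls. The knockout was made with TALENs at exon 4 of Rnls in C57BL/6J mice. The wild-type mice were also C57BL/6J and were obtained from another source. The series holds no sham library of the knockout, so an effect of CKD cannot be measured in it, and sham surgery and the absence of a vector cannot be told apart in comparisons with WTSHAM. By the column names of the counts, WTSHAM replicate 1 and WTCKD + RNLS replicate 3 share a prefix with KOCKD + RNLS and not with the rest of their own groups. The WTCKD columns carry the same letters in lower case. Whether the prefixes mark a batch was not tested.

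The libraries held 10480788 to 13424078 counted reads, with a median of 12011453. Levels are given per library as CPM, counts of a gene relative to its library's total after TMM scaling (counts per 1e6), whose factors ran from 0.925 to 1.05. Where genes are compared with each other, FPKM, which also divides by the gene's length, is used. Differences are log2 fold changes from edgeR's quasi-likelihood test over all 15 libraries with the Benjamini-Hochberg adjusted p over the 13021 genes, and a gene was called at an adjusted p under 0.05. Intervals of a difference are 95% intervals. An exact test of 3 mice against 3 cannot reach 0.05, so that the model over all genes was the test used.

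All 8 ventricular cardiomyocyte markers were tested, and their summed level was between 84380 and 116724 CPM, with Myh6 the most abundant. Of the 4 lung markers, Sftpb was not in the table, Sftpa1 had no read in any library, Sftpc was at 0 in 14 libraries and Scgb1a1 in 11. Of the lymph node and thymus markers, Dntt and Rag1 were at 0 in 14 libraries each. The sum of these lymphoid markers was 13.6 to 33.0 CPM, most of it from Ccl21a. Atrial markers varied by more than the groups did, with a sum from 84.7 CPM in WTCKD replicate 3 to 2649 CPM in KOCKD replicate 3. In KOCKD + RNLS against KOCKD 3 of the 4 tested atrial markers were called lower, but 0 of these calls held without KOCKD replicate 3 or without any 1 of the KOCKD + RNLS libraries, and atrial tissue in a sample and atrial genes active in the ventricle cannot be told apart. The part of this in the class II results was not tested.

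Levels of different genes depend on the gene lengths behind the deposited FPKM. With those lengths the mean over the 15 libraries was 106 FPKM for Cd74, 48.7 FPKM for H2-Aa, 37.7 FPKM for H2-Ab1, 29.6 FPKM for H2-Eb1 and 18.7 FPKM for Ctss. Much lower lay H2-DMb1 with 3.20 FPKM, H2-DMa with 0.593 FPKM and Ciita with 0.213 FPKM. The lengths implied are 1128 bases for H2-Aa, 1193 for H2-Ab1 and 1669 for H2-Eb1, against 1987, 1644 and 1189 exon bases in the mouse annotation used here. They are 8325 bases for H2-DMa, 1284 for H2-DMb1 and 9775 for Ciita, against 1641, 1478 and 6208 exon bases. With exon bases in their place H2-Eb1 would come before H2-Aa and H2-Ab1, and H2-DMa before H2-DMb1, so no order is given within the chains or within H2-DM. Cd74 (1415 against 1410 bases) is the highest and Ciita the lowest by either length.

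The classical chains come first. H2-Aa, the A alpha chain, was at 40.7, 105 and 91.4 CPM in WTSHAM, 61.7, 66.2 and 55.2 CPM in WTCKD, 34.8, 32.0 and 35.8 CPM in WTCKD + RNLS, 48.9, 81.3 and 68.5 CPM in KOCKD and 31.6, 17.7 and 46.2 CPM in KOCKD + RNLS. WTSHAM replicate 1 lay far under the other sham hearts. It also lay under each WTCKD and KOCKD heart, inside the range of KOCKD + RNLS. The WTCKD + RNLS hearts lay close together and under each heart of WTCKD, KOCKD and WTSHAM. H2-Ab1, the A beta chain that pairs with H2-Aa, was at 35.5, 92.5 and 74.5 CPM in WTSHAM, 53.5, 55.3 and 38.6 CPM in WTCKD, 28.7, 24.4 and 29.9 CPM in WTCKD + RNLS, 39.3, 59.9 and 52.4 CPM in KOCKD and 26.4, 16.04 and 41.1 CPM in KOCKD + RNLS. As for H2-Aa, KOCKD + RNLS replicate 2 was the lowest library and WTSHAM replicates 2 and 3 the highest, but several libraries between them changed places, and KOCKD + RNLS replicate 3 stood above KOCKD replicate 1, so that these groups overlap.

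H2-Eb1, the E beta chain, which in C57BL/6 mice lacks the E alpha partner, was at 43.5, 92.1 and 73.2 CPM in WTSHAM, 60.3, 57.6 and 45.9 CPM in WTCKD, 34.4, 30.1 and 39.1 CPM in WTCKD + RNLS, 41.6, 73.5 and 61.7 CPM in KOCKD and 28.4, 13.2 and 41.9 CPM in KOCKD + RNLS. The low library was again KOCKD + RNLS replicate 2, and the high library WTSHAM replicate 2. The SD within a group reached 42.8% of the mean for H2-Aa in WTSHAM and 44.8% in KOCKD + RNLS, but only 5.74% in WTCKD + RNLS. For H2-Ab1 the same 3 shares were 43.1%, 45.2% and 10.4%, and for H2-Eb1 they were 35.2%, 51.5% and 13.1%.

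**Figure D1:**
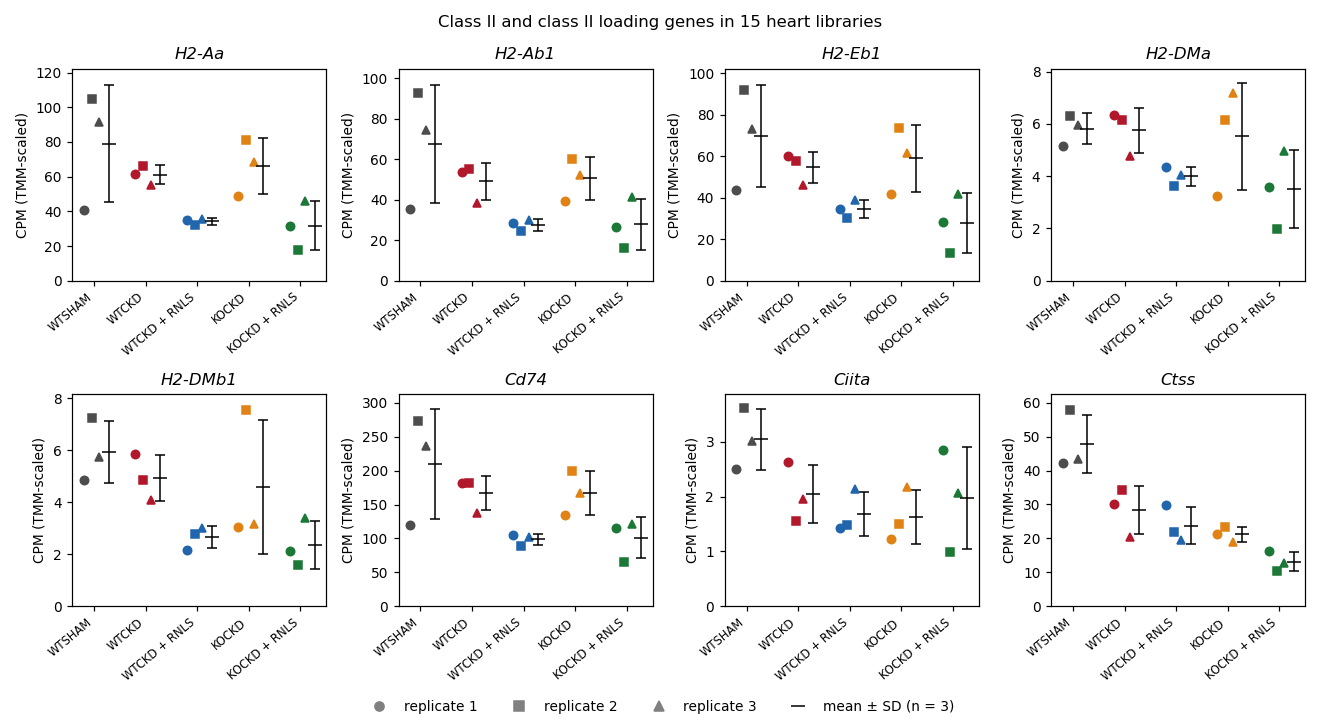
Level of each of the 8 genes in CPM (TMM-scaled) in 15 heart libraries, with symbols for the replicate and a bar for the mean and SD of 3 mice. WTSHAM spreads widely for the chains and Cd74, and WTCKD + RNLS is narrow, with H2-Aa between 32.0 and 35.8 CPM.

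Cd74, the invariant chain, had the most reads of the 8 genes, between 796 and 3645 a library. It was at 119, 274 and 237 CPM in WTSHAM, 181, 182 and 138 CPM in WTCKD, 105, 88.6 and 102 CPM in WTCKD + RNLS, 135, 200 and 167 CPM in KOCKD and 116, 65.8 and 121 CPM in KOCKD + RNLS. As mean ± SD over 3 mice this was 210 ± 80.8, 167 ± 25.4, 98.5 ± 8.66, 167 ± 32.2 and 101 ± 30.6 CPM in the same order of groups. Both treated groups lay under both untreated CKD groups with no overlap, and the means of the untreated CKD groups, wild type and knockout, did not differ beyond their spread, nor did those of the treated groups.

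H2-DM, the exchange factor, is made of H2-DMa and H2-DMb1, both with few reads (24 to 89 and 19 to 96 a library). H2-DMa was at 5.17, 6.32 and 5.96 CPM in WTSHAM, 6.34, 6.15 and 4.76 CPM in WTCKD, 4.34, 3.62 and 4.06 CPM in WTCKD + RNLS, 3.24, 6.15 and 7.17 CPM in KOCKD and 3.58, 1.98 and 4.97 CPM in KOCKD + RNLS. H2-DMb1 was at 4.84, 7.22 and 5.74 CPM in WTSHAM, 5.83, 4.87 and 4.08 CPM in WTCKD, 2.17, 2.79 and 2.99 CPM in WTCKD + RNLS, 3.06, 7.55 and 3.14 CPM in KOCKD and 2.11, 1.57 and 3.37 CPM in KOCKD + RNLS. The WTCKD + RNLS hearts were under all WTCKD hearts for both genes, and KOCKD replicate 2 was far above the other KOCKD hearts for H2-DMb1. Of the 1348 runs of 50 bases in the annotated exons of H2-DMb1, 365 also occur in another gene, all of them in the paralogue H2-DMb2, and the other 7 genes share no such run. H2-DMb2 itself had 110 reads in all, and how the counting treated reads that fit both genes is not stated.

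Ctss, the protease that trims the invariant chain, was at 42.2, 57.8 and 43.5 CPM in WTSHAM, 30.2, 34.2 and 20.5 CPM in WTCKD, 30.0, 21.9 and 19.4 CPM in WTCKD + RNLS, 21.2, 23.4 and 19.0 CPM in KOCKD and 16.3, 10.5 and 12.7 CPM in KOCKD + RNLS. Here all sham hearts, replicate 1 included, stood above all CKD hearts, and all KOCKD + RNLS hearts stood under all others. Ciita was at 2.50, 3.61 and 3.02 CPM in WTSHAM, 2.62, 1.56 and 1.96 CPM in WTCKD, 1.42, 1.49 and 2.14 CPM in WTCKD + RNLS, 1.22, 1.49 and 2.18 CPM in KOCKD and 2.84, 0.992 and 2.06 CPM in KOCKD + RNLS. It had 12 to 48 reads a library, and the 4 CKD groups overlapped throughout.

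A test for any difference among the 5 groups called 6 of the 8 genes, where 22.2% of all genes tested were called (2887 genes). By edgeR's quasi-likelihood test the adjusted p was 0.000321 for Ctss, 0.0171 for H2-Aa, 0.0174 for Cd74, 0.0204 for H2-Ab1, 0.0277 for H2-Eb1 and 0.0317 for H2-DMb1, while H2-DMa (0.174) and Ciita (0.223) were not called. Leaving out WTSHAM replicate 2 left 3 of the 8 genes called, Ctss, H2-Aa and Cd74, whose calls held whichever of the 15 libraries was left out. H2-Ab1 missed the threshold in that fit only (0.0519). H2-Eb1 missed it also without WTSHAM replicate 3 (0.0547) or KOCKD + RNLS replicate 1 (0.0659). H2-DMb1 missed it without 6 of the 15 libraries, with adjusted p up to 0.0831 without KOCKD + RNLS replicate 2. Over 21 alternative fits the adjusted p was 0.00175 to 0.0519 for H2-Ab1, 0.00775 to 0.0659 for H2-Eb1 and 0.00407 to 0.111 for H2-DMb1.

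WTCKD against WTSHAM asks what CKD with the control vector changes in wild-type hearts. None of the 8 genes (0 of 8) was called lower by edgeR's quasi-likelihood test, against 1.7% of all genes tested. By the same test 1 of 8, Ctss, had an unadjusted p under 0.05, as had 2298 of all 13021 genes. DESeq2 called 1 of 8, again Ctss, and 577 of all genes. All 8 estimates were lower, with a median log2 fold change of -0.36 against -0.01 over all genes, and 50.9% of all genes were lower at any p. By the study's thresholds on fold and unadjusted p, applied here to edgeR's p and not to that of the DESeq test on each pair that the study used, 1 of 8 was lower, against 7.63% of all genes, and 1 of 8 was lower with no overlap between the groups, against 12.2%. For Ctss the log2 fold change was -0.76 (SE 0.20, interval -1.18 to -0.34, adjusted p 0.0572), lower in 3 of 3 WTCKD hearts than in any sham heart. It was called when WTSHAM replicate 1 (0.0446), WTCKD + RNLS replicate 1 (0.0452) or WTCKD + RNLS replicate 2 (0.0484) was left out, and over 22 alternative fits it was called in 6, with adjusted p of 0.0129 to 0.355. Here and in the other comparisons these fits include 1 that keeps WTSHAM replicate 1 as the lone sham heart, chosen after seeing the data because that heart was low, so that the ends of the ranges against WTSHAM are no measure of stability.

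The log2 fold change in WTCKD against WTSHAM was -0.37 for H2-Aa (interval -1.01 to 0.27), -0.46 for H2-Ab1 (-1.11 to 0.18), -0.35 for H2-Eb1 (-1.01 to 0.30) and -0.33 for Cd74 (-0.87 to 0.21). The other estimates were -0.57 for Ciita, -0.27 for H2-DMb1 and -0.02 for H2-DMa. Each of these intervals includes 0, and the smallest adjusted p among these 7 genes was 0.433. The median over the 8 genes was -0.65 without WTSHAM replicate 1 and -0.11 without WTSHAM replicate 2.

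WTCKD + RNLS against WTCKD asks what cardiac renalase changes in wild-type CKD hearts. None of the 8 genes (0 of 8) was called by edgeR's quasi-likelihood test, against 2.28% of all genes tested called lower. By the same test 4 of 8 had an unadjusted p under 0.05, as had 2630 of all 13021 genes. DESeq2 called 0 of 8, and 876 of all genes. All 8 estimates were lower, with a median of -0.71 against 0.01 over all genes, of which 47.8% were lower. By the study's thresholds 4 of 8 were lower (H2-Aa, H2-Ab1, H2-DMb1 and Cd74), against 8.09% of all genes. With no overlap between the groups 6 of 8 were lower, all but Ciita and Ctss, against 10.8%. Cd74 changed by -0.76 (SE 0.26, interval -1.31 to -0.21, adjusted p 0.109), H2-Aa by -0.83 (SE 0.31, interval -1.49 to -0.17, adjusted p 0.144) and H2-Ab1 by -0.83 (SE 0.32, interval -1.50 to -0.16, adjusted p 0.153).

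The other estimates of this comparison were -0.89 for H2-DMb1 (adjusted p 0.159), -0.66 for H2-Eb1, -0.52 for H2-DMa, -0.28 for Ciita and -0.25 for Ctss. The fit shares its estimate of the spread with all groups, and without WTSHAM replicate 1, a library outside this comparison, Cd74 (0.0252) and H2-Aa (0.0469) were called. Over 22 alternative fits the adjusted p was 0.0109 to 0.284 for Cd74 (called in 3) and 0.00315 to 0.34 for H2-Aa (called in 2). Fitted on the 6 libraries of the comparison alone, 4 of 8 genes were called, and 380 of all genes. The median over the 8 genes stayed between -0.83 and -0.65 when any 1 library was left out. Over all genes, 285 were called higher and 297 lower in this comparison with TMM scaling, and 156 higher and 406 lower when libraries were scaled by their totals alone. The direction of the 8 genes was the same under both scalings.

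KOCKD + RNLS against KOCKD asks the same question in knockout hearts. Here 3 of the 8 genes were called lower by edgeR's quasi-likelihood test, against 7.04% of all genes tested. These were H2-Aa at -1.06 (SE 0.31, interval -1.73 to -0.40, adjusted p 0.0313), H2-Eb1 at -1.09 (SE 0.32, interval -1.77 to -0.41, adjusted p 0.0316) and Ctss at -0.68 (SE 0.21, interval -1.14 to -0.23, adjusted p 0.04). Treated hearts were under all untreated hearts in 3 of 3 for H2-Aa and Ctss, while KOCKD + RNLS replicate 3 reached the level of KOCKD replicate 1 for H2-Eb1. By the study's thresholds 7 of 8 were lower, all but Ciita, against 10.1% of all genes, and with no overlap 3 of 8 were lower (H2-Aa, Cd74 and Ctss), against 20%. The share of all genes called in this comparison was the highest of the pairwise comparisons, with 2095 called.

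Cd74 changed by -0.73 (adjusted p 0.0656), H2-Ab1 by -0.86 (0.0724), H2-DMb1 by -0.96 (0.0747), H2-DMa by -0.66 (0.143) and Ciita by 0.26 (0.666) in KOCKD + RNLS against KOCKD. The median was -0.80 against -0.01 over all genes, of which 50.9% were lower. These calls depended on single libraries, since 0 of 8 genes were called without replicate 2 of KOCKD + RNLS or without replicate 2 or 3 of KOCKD, and 5 of 8 without WTSHAM replicate 1, where H2-Ab1 (0.0241) and Cd74 (0.0168) were added. H2-Aa and H2-Eb1 missed the threshold also without KOCKD + RNLS replicate 1 (0.087 and 0.0827). Ctss missed it also without WTCKD replicate 1 (0.0518), KOCKD replicate 1 (0.0795) or KOCKD + RNLS replicate 3 (0.105). H2-DMa was called without KOCKD replicate 1 (0.0443), and H2-Ab1 without KOCKD + RNLS replicate 3 (0.0307). Over 22 alternative fits H2-Aa was called in 18 (adjusted p 0.00752 to 0.135), H2-Eb1 in 18 (0.0149 to 0.131), Ctss in 15 (0.00929 to 0.167), Cd74 in 4 (0.0168 to 0.255), H2-Ab1 in 4 (0.0241 to 0.271) and H2-DMa in 1 (0.0443 to 0.455). H2-DMb1 was called in 1 of 23 (0.0497 to 0.45), by DESeq2. The median was -0.56 without KOCKD + RNLS replicate 2, the lowest library for all 8 genes, and -1.12 without KOCKD + RNLS replicate 3.

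The difference between these effects, the change with renalase in knockout minus that in wild-type hearts, was tested directly. None of the 8 genes (0 of 8) was called lower by edgeR's quasi-likelihood test, against 0% of all genes tested, none had an unadjusted p under 0.05 (0 of 8), and DESeq2 called 0 of 8. Over all genes edgeR called 0, with 2288 at an unadjusted p under 0.05, and DESeq2 called 374. By the study's thresholds 0 of 8 were lower, against 8.43%. The estimates ran from -0.43 for Ctss (interval -1.06 to 0.19, adjusted p 0.468) and -0.43 for H2-Eb1 to 0.54 for Ciita, with 0.03 for Cd74 (interval -0.74 to 0.81). So the calls of H2-Aa, H2-Eb1 and Ctss in knockout hearts and not in wild-type hearts are no measured difference between the genotypes, and the intervals leave room for differences of the size of the effects themselves.

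**Figure D2:**
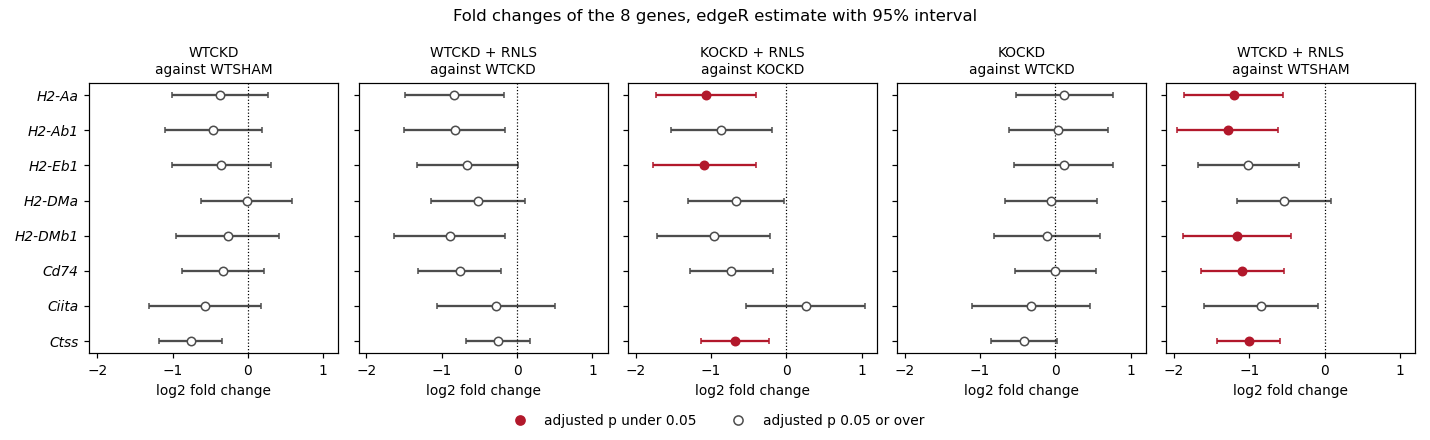
Log2 fold change of the 8 genes in 5 comparisons (edgeR estimate, horizontal axis) with 95% intervals, filled where the adjusted p was under 0.05. In WTCKD + RNLS against WTSHAM 5 of 8 genes are filled, in KOCKD + RNLS against KOCKD 3 of 8 and in the others 0 of 8.

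KOCKD against WTCKD compares the genotypes, both with CKD and the control vector. By edgeR's quasi-likelihood test 0 of 8 genes were called lower, against 0% of all genes tested, none had an unadjusted p under 0.05 (0 of 8), and DESeq2 called 0 of 8. Over all 13021 genes edgeR called 0, with 1318 at an unadjusted p under 0.05, and DESeq2 called 10. By the study's thresholds 0 of 8 were lower, against 3.68%, and 0 of 8 were lower with no overlap, against 9.43%. The estimates were split into 4 higher and 4 lower with a median of -0.03. They ran from -0.42 for Ctss (interval -0.85 to 0.02, adjusted p 0.499) to 0.12 for H2-Aa (interval -0.53 to 0.76), and the interval of Cd74 was -0.54 to 0.54.

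WTCKD + RNLS against WTSHAM places the treated wild-type hearts on the scale of the sham hearts, and it shares WTCKD + RNLS or WTSHAM with both wild-type comparisons given before. By edgeR's quasi-likelihood test 5 of 8 genes were called lower, against 4.81% of all genes tested. By the study's thresholds 7 of 8 were lower, all but H2-DMa, against 10.7%, and all 8 of 8 were lower with no overlap, against 11.9%. The difference was -1.01 for Ctss (SE 0.20, adjusted p 0.00614), -1.09 for Cd74 (SE 0.26, adjusted p 0.0181) and -1.29 for H2-Ab1 (SE 0.31, adjusted p 0.021). H2-Aa differed by -1.21 (SE 0.31, adjusted p 0.027) and H2-DMb1 by -1.16 (SE 0.34, adjusted p 0.048), each lower in 3 of 3 treated hearts than in any sham heart. H2-Eb1 at -1.01 (adjusted p 0.0608), Ciita at -0.85 (0.157) and H2-DMa at -0.54 (0.28) were not called.

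The median of WTCKD + RNLS against WTSHAM was -1.05, against 0.00450 over all genes, of which 49.3% were lower. Of the 5 calls, only that of Ctss held in each of the 15 fits without 1 library. Without WTSHAM replicate 2, WTSHAM replicate 3 or WTCKD + RNLS replicate 2, Ctss was the 1 gene called, while Cd74 was at 0.0985, 0.0663 and 0.0671. Without WTCKD + RNLS replicate 1, 2 of 8 were called, and without WTCKD + RNLS replicate 3, 3 of 8. Without WTSHAM replicate 1 or KOCKD + RNLS replicate 3, 6 of 8 were called, with H2-Eb1 at 0.0144 and 0.0452. H2-Eb1 was also called without KOCKD + RNLS replicate 2 (0.0266). H2-DMb1 was near the threshold, and it missed it without any 1 of the WTCKD libraries (0.0612, 0.0595 and 0.053) or of KOCKD + RNLS replicates 1 (0.0628) and 2 (0.0532). Over 22 alternative fits, 23 for H2-DMb1, the adjusted p was 0.000106 to 0.163 for Ctss (called in 21), 0.000599 to 0.759 for Cd74 (17), 0.00117 to 0.753 for H2-Ab1 (16), 0.00126 to 0.837 for H2-Aa (15), 0.0171 to 0.5 for H2-DMb1 (11) and 0.0144 to 0.807 for H2-Eb1 (5). Over all genes, 375 were called higher and 626 lower with TMM scaling, and 166 higher and 870 lower with scaling by library totals.

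The 3 chains, Cd74 and the H2-DM genes moved together across the libraries, as a description over 15 libraries from 5 groups. Pearson's r of log2 CPM was 0.99 between H2-Aa and H2-Ab1, 0.98 between H2-Aa and H2-Eb1 and 0.98 between H2-Aa and Cd74. After group means were removed, the same pairs had 0.98, 0.96 and 0.96, so the likeness is also present among mice of 1 group. H2-DMa and H2-DMb1 had 0.87 and 0.88 with H2-Aa. Ctss had 0.66 with H2-Aa and Ciita 0.54, which fell to 0.35 and 0.12 without KOCKD + RNLS replicate 2 and WTSHAM replicate 2, the libraries farthest from the median. Spearman's rho over all 15 libraries was 0.59 and 0.46, and r with group means removed was 0.43 and 0.59. Ctss and Ciita thus followed H2-Aa less closely than Cd74 did, whose r was 0.96 without these libraries.

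Ratios within a library, whose size depends on the deposited lengths but whose fold range does not, show the same. Cd74 was 2.49 to 3.69 times as high as H2-Ab1 in FPKM over the 15 libraries, a 1.48-fold range, and H2-Aa was 1.17 to 1.51 times as high. The ratio of H2-Eb1 to H2-Ab1 ran from 0.590 in KOCKD + RNLS replicate 2 to 0.937 in WTCKD + RNLS replicate 3. In contrast, Ctss per H2-Ab1 ran over a 3.83-fold range, from 0.255 in KOCKD + RNLS replicate 3 to 0.979 in WTSHAM replicate 1. In the low sham heart Ctss thus kept a sham level while the chains and Cd74 did not.

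Other genes of the pathway were followed in lists chosen by function. Of 6 other class II chains, H2-Ea and H2-Ea-ps were not in the table, H2-Eb2 and H2-Oa had 12 and 25 reads in all and were not tested, and H2-Ob and H2-DMb2 were tested. Neither was called in any pairwise comparison. H2-Ob, a chain of the H2-O molecule that restrains H2-DM, was the most abundant of them with 128 reads in all.

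Among 9 lysosomal enzymes, 8 proteases and the reductase Ifi30, Ctsd was the most abundant. By edgeR's quasi-likelihood test 3 of 9 were lower in KOCKD + RNLS against KOCKD, Ctsh at -0.46 (adjusted p 0.0126), Ctsl at -0.42 (0.0179) and Ctsb at -0.21 (0.0404), and 0 were higher. In WTCKD + RNLS against WTSHAM 2 of 9 were lower, Ctsz at -0.62 (0.00798) and Ctsc at -0.59 (0.0216). With 1 library left out in turn, Ctsz was called in 15 of 15 fits, Ctsh in 12, Ctsl and Ctsc in 11 and Ctsb in 5. Cst3, the cystatin that inhibits such proteases and the most abundant of 4 inhibitors, was lower in KOCKD + RNLS against KOCKD at -0.40 (adjusted p 0.00518) and in 15 of 15 such fits. Of the ubiquitin ligases that remove class II from the surface, Marchf1 and Marchf8, the more abundant, neither was called.

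Next come the factors that act on the class II and Ciita genes. Of 7 enhanceosome genes, with Nfyc the most abundant, Nfya was higher in KOCKD + RNLS against KOCKD at 0.40 (adjusted p 0.0473) and Nfyc in WTCKD + RNLS against WTSHAM at 0.27 (0.0449), calls kept in 5 and 3 of the 15 fits without 1 library. Among inducers and repressors of Ciita, Ifng and Il10 had 8 and 6 reads in all libraries together and were not tested, and Jak1 was the most abundant. In WTCKD against WTSHAM, Irf1 was lower at -1.24 (adjusted p 0.0201) and Tgfb1 was higher at 0.53 (0.0145).

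In WTCKD against WTSHAM, Tgfb1 was called in 13 of the 15 fits without 1 library (not without WTSHAM replicate 3 or WTCKD replicate 2) and Irf1 in 12 (not without WTCKD replicate 1, 2 or 3). In WTCKD + RNLS against WTCKD, Jak1 was lower at -0.38 (adjusted p 0.0161, 10 of 15 such fits) and Tgfb1 at -0.58 (0.00753, 15 of 15), and in KOCKD + RNLS against KOCKD, Jak2 was higher at 0.38 (0.0151, 13 of 15). In WTCKD + RNLS against WTSHAM, Irf1 was lower at -1.25 (0.00927) and Il10ra at -1.08 (0.00798), both in 15 of 15 fits, and Spi1 at -0.67 (0.0473), in 1 of 15. Irf1 was not called with renalase in either genotype.

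Of 7 costimulatory and adhesion genes that stand beside class II on a presenting cell, 6 were tested and Cd274 was the most abundant. Cd274 was lower in WTCKD against WTSHAM at -1.74 (adjusted p 0.00527) and in WTCKD + RNLS against WTSHAM at -1.99 (0.00113), in 15 of 15 fits without 1 library for both. Icam1 was lower in WTCKD + RNLS against WTCKD at -0.73 (0.0196, 12 of 15) and against WTSHAM at -0.77 (0.0101, 14 of 15), and Icosl was higher in KOCKD + RNLS against KOCKD at 0.75 (0.0361, 10 of 15). Of 5 receptors and ligands of class II and the invariant chain, with Mif the most abundant, Cd44 was lower in WTCKD + RNLS against WTSHAM at -0.83 (0.0284, 11 of 15).

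Class I presentation, the route for peptides made inside a cell, was the closest comparison, with 11 genes and B2m the most abundant. In WTCKD against WTSHAM 5 of 11 class I genes were called lower by edgeR's quasi-likelihood test, where 0 of 8 class II genes were, and the medians were -0.65 and -0.36. The genes with the smallest p were Tap1 at -1.56 (adjusted p 0.0193), Psmb9 at -0.95 (0.0198), Psmb8 at -1.02 (0.0201) and Nlrc5 at -1.40 (0.0439), called in 12, 10, 12 and 6 of the 15 fits without 1 library, and all 5 calls were lost without WTSHAM replicate 2, WTCKD replicate 1 or WTCKD replicate 3. In WTCKD + RNLS against WTCKD 0 of 11 were called, with a median of -0.25 beside -0.71 for class II. In KOCKD + RNLS against KOCKD 2 of 11 were lower, B2m at -0.62 (0.0471) and H2-D1 at -0.51 (0.0489), in 6 and 5 of 15 fits, with a median of -0.23 beside -0.80. In WTCKD + RNLS against WTSHAM all 11 of 11 were lower, with a median of -1.02 beside -1.05, among them Psmb9 at -1.49 (0.000626) and B2m at -1.19 (0.00228). Of these 11 calls 7 held in each of the 15 fits, and 4 were lost without WTSHAM replicate 2. The difference between the lists was not tested.

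**Figure D3:**
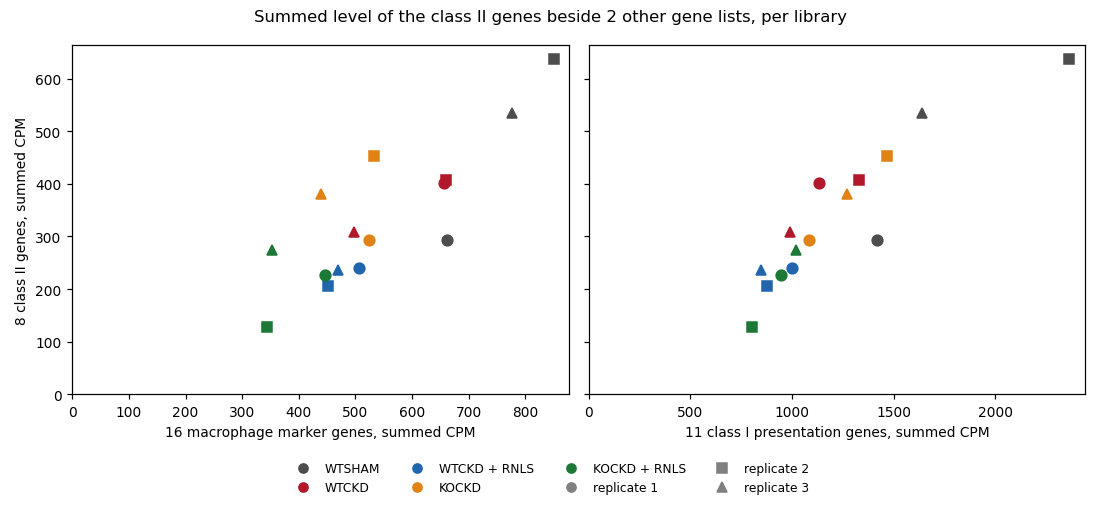
Summed CPM of the 8 class II genes in each of 15 libraries (vertical axis) against the summed CPM of 16 macrophage markers (left) and of 11 class I genes (right). WTSHAM replicate 1, at 294 CPM for class II, lies under the other sham hearts on the vertical axis.

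The 8 genes are made mainly by immune cells, so that fewer such cells and less RNA per cell cannot be told apart in RNA of a whole heart. The summed level of the 8 genes was 294, 638 and 534 CPM in WTSHAM, 402, 408 and 309 CPM in WTCKD, 240, 205 and 236 CPM in WTCKD + RNLS, 294, 453 and 381 CPM in KOCKD and 227, 128 and 274 CPM in KOCKD + RNLS. The summed level of 16 macrophage markers, with Lyz2 the most abundant and none at 0 in any library, was 661, 851 and 777 CPM in WTSHAM, 657, 659 and 497 CPM in WTCKD, 507, 452 and 470 CPM in WTCKD + RNLS, 525, 533 and 440 CPM in KOCKD and 447, 344 and 352 CPM in KOCKD + RNLS. Both sums were lowest in KOCKD + RNLS replicate 2 and highest in WTSHAM replicate 2. Of the 16 macrophage markers, 1 was called lower in WTCKD against WTSHAM (Fcgr1), 0 in WTCKD + RNLS against WTCKD, 2 in KOCKD + RNLS against KOCKD (Lyz2 and C1qa), 0 in KOCKD against WTCKD and 10 in WTCKD + RNLS against WTSHAM. With 1 library left out in turn, the calls of Fcgr1 and Lyz2 held in 15 of 15 fits, that of C1qa in 10, and 7 of the 10 against WTSHAM in all 15. The medians of the 16 markers in the same order were -0.43, -0.33, -0.28, -0.29 and -0.76. At any p, all 16 were lower in both comparisons with WTSHAM. In WTCKD + RNLS against WTCKD 14 were lower and 2 higher, and in KOCKD against WTCKD 15 and 1. In KOCKD + RNLS against KOCKD 12 were lower and 4 higher, and by the study's thresholds 6 and 2. The part of these markers in the class II results was not tested.

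Marker sums of other presenting cells were lower than that of the macrophage markers. The lists differ in genes and size, so these sums do not measure how much RNA each cell type left. The sum of 9 dendritic cell markers was 16.1 to 35.4 CPM, most of it from Zbtb46, which endothelial cells also express, while the defining markers Flt3, Xcr1 and Clec9a were at 0 in 7, 4 and 5 libraries. Cd83 was the dendritic cell marker called lower in WTCKD + RNLS against WTCKD, in KOCKD + RNLS against KOCKD and in WTCKD + RNLS against WTSHAM, in 13, 13 and 15 of the 15 fits without 1 library. The sum of 8 B cell markers was 1.17 to 12.2 CPM, with Cd79a the most abundant and the highest value in KOCKD replicate 3. The sum of 5 monocyte markers, with Ccr2 the most abundant, was 10.1 to 14.6 CPM in WTSHAM and 3.68 to 9.04 CPM in the CKD groups. Of its 3 tested genes, 2 were called lower in WTCKD + RNLS against WTSHAM, Plac8 at -2.61 (adjusted p 0.0222, 12 of 15 fits without 1 library) and Fcgr4 at -1.91 (0.0251, 11 of 15), both lost without WTSHAM replicate 2, WTCKD + RNLS replicate 2 or WTCKD + RNLS replicate 3, and 0 in the other pairwise comparisons. The sum of 10 T and NK cell markers was 7.43 to 16.4 CPM, mostly Thy1, the only gene of this list that passed the filter on low counts. Cd3d was at 0 in 6 libraries and Ncr1 in 8.

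Endothelial markers, with Kdr the most abundant, were lower for 4 of 8 genes in treated wild-type hearts, both against WTCKD and against WTSHAM, while in KOCKD + RNLS against KOCKD 1 was lower and 1 higher. Against WTSHAM, 3 of the 4 calls were lost without WTSHAM replicate 2, and that of Kdr held in 1 of 15 fits without 1 library. Each of the 4 calls against WTCKD held in at least 14 of 15. Fibroblast markers, with Dcn the most abundant, were called lower for 3 of 8, 2 of 8 and 4 of 8 genes in WTCKD + RNLS against WTCKD, KOCKD + RNLS against KOCKD and WTCKD + RNLS against WTSHAM. The 3 calls of the first were all lost without WTCKD replicate 2, and the 2 in knockout hearts without KOCKD replicate 1 or KOCKD + RNLS replicate 2. Of the 8 ventricular cardiomyocyte markers, 4 were called higher in WTCKD + RNLS against WTSHAM, 2 in KOCKD + RNLS against KOCKD and 0 in WTCKD + RNLS against WTCKD. Of the 4, 2 were lost without WTSHAM replicate 3 or WTCKD + RNLS replicate 2, and of the 2, 1 was lost without KOCKD replicate 2, KOCKD + RNLS replicate 1 or KOCKD + RNLS replicate 2. At any p, 7 of these 8 markers were higher in WTCKD + RNLS against WTSHAM (median 0.38) and 8 in WTCKD + RNLS against WTCKD (median 0.18). In KOCKD + RNLS against KOCKD, 5 of the 8 were lower and 3 higher, with a median of -0.07. The part of these shifts in the class II results was not tested.

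The tested genes with the pattern most like the 8, by Pearson's r with the mean of their standardised log2 CPM over 15 libraries, were H2-K1 (0.92), Clec4a1 (0.92), Zc3h12d (0.90), Cmtm3 (0.89), H2-D1 (0.88), Mpeg1 (0.88), Dhh (0.87), Cybb (0.87), Actr3 (0.87) and B2m (0.86). Without KOCKD + RNLS replicate 2 and WTSHAM replicate 2 the values in the same order were 0.84, 0.80, 0.80, 0.77, 0.83, 0.73, 0.79, 0.81, 0.77 and 0.82. Spearman's rho ran from 0.80 for Cybb to 0.89 for Cmtm3. They were taken as the highest of all tested genes, so these values are a description. H2-K1 was at 334 ± 113 CPM in WTSHAM, 194 ± 34.2 CPM in WTCKD, 165 ± 22.8 CPM in WTCKD + RNLS, 217 ± 40.6 CPM in KOCKD and 139 ± 51.9 CPM in KOCKD + RNLS (SD, n = 3 each).

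By position, 5 of the 8 genes lie together. In the GENCODE M1 annotation of the NCBIM37 build H2-DMa, H2-DMb1, H2-Ab1, H2-Aa and H2-Eb1 fall within 181 kb, at chr17:34272127-34453144. H2-Ab1 on the plus strand and H2-Aa on the minus strand overlap by 17 exon bases at their ends. Ciita lies at chr16:10480237-10527657 and Ctss at chr3:95330708-95360325, both on the plus strand. Cd74, which lies outside the cluster, was as close in pattern to H2-Aa as H2-Eb1 inside it, while Ctss and Ciita, also outside, were the farthest.

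Because the chains and H2-DM genes moved together, their promoters were searched in RefSeq windows of 250 bases before to 50 bases after the gene start (build GRCm38.p6), which matched 5 of the 8 genes. H2-Ab1, Cd74 and Ciita had no entry. The motifs, chosen after the sequences were seen, were the Y box GATTGG, the X box core GNAAC followed by GATTGG after 20 to 35 bases on the same strand, and the interferon response motif of GAAA, any 2 bases and GAAA, each searched on both strands, the second of them containing the Y box. Of 32851 promoter windows 16.1% hold the Y box, 0.922% the X and Y pair and 3.44% the interferon response motif. The Y box is in the window of 4 of the 5 genes, and the pair in that of H2-Aa, H2-Eb1 and H2-DMb1, as well as in 3 of the 4 other class II chains, H2-Eb2, H2-Oa and H2-Ob. The interferon response motif is in that of Ctss. H2-DMa has the Y box alone, in 1 of its 2 windows. The segments are shown for the genes with the pair or the interferon response motif, since they include the genes called in KOCKD + RNLS against KOCKD. Capitals mark GNAAC and GATTGG, or the interferon response motif in Ctss, and each segment is read 5′ to 3′ on the strand of its gene, at chr17:34287855-34287916 (minus) for H2-Aa, chr17:34305764-34305824 (plus) for H2-Eb1, chr17:34153085-34153146 (plus) for H2-DMb1 and chr3:95526753-95526785 (plus) for Ctss.
H2-Aa: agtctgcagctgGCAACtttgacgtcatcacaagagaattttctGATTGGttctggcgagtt
H2-Eb1: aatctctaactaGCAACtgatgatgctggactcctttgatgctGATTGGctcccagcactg
H2-DMb1: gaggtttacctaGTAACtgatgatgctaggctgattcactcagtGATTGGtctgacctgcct
Ctss: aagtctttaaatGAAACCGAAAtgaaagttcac
The bases between the capitals number 27 in H2-Aa, 26 in H2-Eb1 and 27 in H2-DMb1. A match describes the sequence and does not show that a factor binds there.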

How the data were processed

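RNA-seq libraries of 15 hearts, 3 mice to each of 5 groups, were grouped by the sample labels. Column names of the deposited counts cut across these groups. WTSHAM replicate 1 and WTCKD + RNLS replicate 3 carry another prefix than the rest of their groups, and it is that of KOCKD + RNLS. The WTCKD columns carry the same letters in lower case. The meaning of the prefixes is not stated, and a batch or a labelling error was not tested. The authors deposited read counts per gene without normalization, made with Trimmomatic, HISAT2 and HTSeq, and FPKM per library. The deposited FPKM equal the counts divided by a fixed length per gene and the library total (relative deviation at most 2.9e-08). The study's supplement names the mm9 genome and the submitters' notes GRCm39, the files carry no coordinates, and the tool versions, annotation and strand option are not stated. Positions and sequences come from public annotation and not from the counting.

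R 4.3.3 with edgeR 4.0.16 served for all tests, with TMM scaling, the filter on low counts at its settings of 10 and 15, group as the only term and Benjamini-Hochberg adjustment over 13021 genes. DESeq2 1.42.0, RLE size factors, library totals, no filter, a block for the replicate number, a fit on the 6 compared libraries alone, each library left out in turn, the study's thresholds (fold over 1.25 and unadjusted p under 0.05) with edgeR's p in place of that of the study's DESeq nbinomTest, H2-DMb1 summed with H2-DMb2 and WTSHAM replicate 1 alone as sham were the alternatives, the last chosen after seeing the data. The code was tested on simulated data. Tables and plots used Python 3.11.15 with matplotlib 3.10.9.

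The 8 genes and all lists were chosen with earlier results of these data known. Named are the 8 genes, from each list up to 4 called genes per comparison by smallest p and its most abundant gene, and the 10 tested genes most correlated with the 8. Reads were not realigned. Totals were 10480788 to 13424078 reads, and the lowest count of the 8 genes in a library was 12 reads.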

Additional observations from a re-analysis of the deposited data

How the results depend on the processing

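Counts are of the 8 genes called, then of all genes called, and medians are log2 fold changes over the 8 genes. No called direction of the 8 genes reversed under any alternative, and scaling moved the median gene by at most 0.0912. WTCKD against WTSHAM (0, 299, -0.36) gave 1 of 8 with no filter, the replicate block, DESeq2 and the study's thresholds, 577 genes with DESeq2, 99 with the 6 libraries, 1470 with the study's thresholds and a median of 0.24 with WTSHAM replicate 1 alone. WTCKD + RNLS against WTCKD (0, 582, -0.71) gave 4 with the 6 libraries, 1 with WTSHAM replicate 1 alone and 4 with the study's thresholds, and 876, 380 and 1874 genes with DESeq2, the 6 libraries and the study's thresholds. KOCKD + RNLS against KOCKD (3, 2095, -0.80) gave 2 with library totals, 4 with no filter, 4 with DESeq2, 5 with the 6 libraries and 7 with the study's thresholds. Its median was -0.79 with WTSHAM replicate 1 alone. KOCKD against WTCKD (0, 0, -0.03) gave 0 of 8 throughout, and 5 genes with no filter, 4 with RLE, 1 with the replicate block, 10 with DESeq2, 2 with the 6 libraries, 1 with WTSHAM replicate 1 alone and 732 with the study's thresholds. WTCKD + RNLS against WTSHAM (5, 1001, -1.05) gave 2 with the 6 libraries, 0 and a median of -0.36 with WTSHAM replicate 1 alone, and 294, 215 and 2086 genes with the 6 libraries, WTSHAM replicate 1 alone and the study's thresholds. The difference of the RNLS effect (0, 0, -0.11) gave 0 of 8 throughout, and 1 gene with library totals, 374 with DESeq2 and 1981 with the study's thresholds. The test of any difference (6, 2887) gave 5166 genes at an unadjusted p under 0.05.

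With 1 library left out in turn, the lowest and highest values were 0 to 1, 136 to 581 genes and -0.65 to -0.11 in WTCKD against WTSHAM, 0 to 2, 209 to 795 and -0.83 to -0.65 in WTCKD + RNLS against WTCKD, 0 to 5, 862 to 2771 and -1.12 to -0.56 in KOCKD + RNLS against KOCKD, 0 to 0, 0 to 3 and -0.15 to 0.16 in KOCKD against WTCKD, 1 to 6, 427 to 1495 and -1.27 to -0.85 in WTCKD + RNLS against WTSHAM, 0 to 0, 0 to 2 and -0.42 to 0.15 for the difference of the RNLS effect, and 3 to 6 and 1740 to 3727 for any difference. With the replicate block the 6 medians were -0.32, -0.72, -0.78, -0.05, -1.04 and -0.07, with 1, 0, 3, 0, 4, 0 and 6 genes called, and replicate numbers do not pair the libraries across groups (residual r of -0.36 to 0.33 over 30 pairs). Where fewer libraries were used, fewer degrees of freedom are part of the change, and otherwise the cause was not tested. The fits with WTSHAM replicate 1 alone were chosen after seeing the data, because that heart was low, and take the lone heart to vary like the other groups, so they are no test of stability.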
